A study of Mus musculus with 12 samples.

Results

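The Nuclear factor I family of the mouse has 4 genes, Nfia, Nfib, Nfic, and Nfix, and their peaks of 5-methylcytosine (5mC) and 5-hydroxymethylcytosine (5hmC) were followed from progenitors to neurons in the embryonic cortex. Every peak whose gene symbol in the deposited tables is one of these 4 was taken, which gave 19 of 102563 peaks. They comprised 3 of 55085 peaks of 5mC and 16 of 47478 peaks of 5hmC. Nfib had 2 peaks of 5mC and 6 of 5hmC, Nfic had 1 and 3, and Nfix had 0 and 7. Nfia had no peak under its own symbol in either table, and hence no expression value, as the tables give expression only beside a peak.

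Cells were sorted from the cortex of E14.5 mice that carry the Btg2-RFP and Tubb3-GFP reporters, each on 1 allele, so that all groups share both reporters. Proliferating progenitors (PP) lacked RFP and GFP, differentiating progenitors (DP) had RFP without GFP, and neurons had GFP with or without RFP. Each cell type was profiled by immunoprecipitation of methylated DNA (MeDIP, for 5mC) and of hydroxymethylated DNA (hMeDIP, for 5hmC), with an input for each, in 12 samples of which 6 were immunoprecipitated. PP, DP, and neuron DNA carried barcodes and went into the same pull-down. The tables hold 1 mean log2 level per peak and cell type, averaged by the authors over biological replicates. They hold no replicate values, input signal, or read counts. The depth behind each level is therefore unknown, and no difference below has a replicate error or a test.

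Nuclear factor I proteins are transcription factors that bind DNA as dimers, at a palindrome made of TTGGC and its inverse. In the embryonic cortex Nfia, Nfib, and Nfix are known for driving radial glial progenitors out of self-renewal and toward neurons and glia, and for the midline glia that let callosal axons cross, whereas Nfic is best known from tooth root development. The mark 5mC is laid down by DNA methyltransferases, and Tet enzymes oxidize it to 5hmC, which is abundant in neurons and frequent at enhancers.

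Sequences of the promoters are shown first because none of the available start sites lay under a peak. RefSeq (GRCm38.p6, the assembly called mm10) gave 6 promoter windows for the family, from 250 bases before to 50 after a start site, namely 1 of Nfia, 1 of Nfic, and 4 of Nfix. All 6 windows lie inside the RefSeq span of their gene, at internal start sites. Those of Nfic and Nfix do not hold the start sites used for distances below, chr10 position 81431005 and chr8 position 84800344. In the lines that follow, CpG dinucleotides, the usual substrate of 5mC in mammals, are in capitals, and each sequence is written 5′ to 3′ on the strand of its gene. The Nfia window is at chr4:97581693-97581992 (plus strand), the Nfic window at chr10:81427124-81427423 (minus strand), and the Nfix windows shown are at chr8:84780033-84780332 and chr8:84775779-84776078 (minus strand), the richest in CpG and the one nearest to a 5hmC peak.
Nfia: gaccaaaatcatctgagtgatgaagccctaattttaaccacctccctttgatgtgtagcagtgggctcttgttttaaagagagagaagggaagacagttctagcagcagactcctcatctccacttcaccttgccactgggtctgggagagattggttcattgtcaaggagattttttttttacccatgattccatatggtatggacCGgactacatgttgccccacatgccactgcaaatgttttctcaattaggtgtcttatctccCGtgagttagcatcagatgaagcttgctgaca
Nfic: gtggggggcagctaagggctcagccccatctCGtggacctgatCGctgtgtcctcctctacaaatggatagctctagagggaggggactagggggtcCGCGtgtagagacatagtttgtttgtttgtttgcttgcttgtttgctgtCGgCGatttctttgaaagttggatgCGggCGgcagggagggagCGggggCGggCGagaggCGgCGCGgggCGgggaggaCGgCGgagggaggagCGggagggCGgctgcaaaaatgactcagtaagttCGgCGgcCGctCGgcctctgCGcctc
Nfix, window with the most CpG: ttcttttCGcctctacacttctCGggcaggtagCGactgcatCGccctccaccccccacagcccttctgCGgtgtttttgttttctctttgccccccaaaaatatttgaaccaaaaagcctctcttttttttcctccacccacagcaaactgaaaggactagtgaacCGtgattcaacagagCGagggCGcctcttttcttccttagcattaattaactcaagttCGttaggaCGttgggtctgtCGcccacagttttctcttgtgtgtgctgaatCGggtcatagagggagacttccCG
Nfix, window nearest to a 5hmC peak: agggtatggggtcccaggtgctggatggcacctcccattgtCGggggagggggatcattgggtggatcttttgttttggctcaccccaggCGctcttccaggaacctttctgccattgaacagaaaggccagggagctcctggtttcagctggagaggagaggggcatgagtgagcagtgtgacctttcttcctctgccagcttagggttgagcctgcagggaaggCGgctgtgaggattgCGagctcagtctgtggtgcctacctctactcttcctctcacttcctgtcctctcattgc

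These windows differed widely in CpG. The Nfia window held 2 CpG, and 14.1% of 32851 RefSeq promoters held fewer. The Nfic window held 24, more than 80% of promoters, and the 4 Nfix windows held 13, 4, 9, and 2, on both sides of the median of 7 over all promoters. No 5mC or 5hmC peak overlapped any of the 6 windows. The nearest 5hmC peak, whatever its symbol, was 3631 bp from the Nfia window, 5111 bp from the Nfic window, and between 1539 and 4492 bp from the Nfix windows. The nearest 5mC peak was farther in each case, at 12619 bp for Nfia, 6513 bp for Nfic, and 35922 to 43129 bp for Nfix. All these distances are from the windows. From the other start sites, used for distances below, a 5hmC peak lay 1633 bp away at Nfic and 2424 bp away at Nfix.

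The letters of the binding palindrome, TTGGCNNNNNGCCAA, were searched on both strands and occurred in 0 of the 6 windows and in 0.0365% of all RefSeq promoters. The element TTGGC alone, which is part of the palindrome, occurred in 3 of the Nfix windows (1, 1, and 2 copies) and not in those of Nfia and Nfic, and 46.7% of all promoters hold it. The E-box CANNTG, bound by proneural factors of the basic helix-loop-helix class, occurred 5 times in the Nfia window and once in that of Nfic, in the order above 0, 2, 0, and 1 times in the Nfix windows, and 72.3% of all promoters hold at least 1 copy.

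Expression of the 3 genes with a peak went in opposite directions along the lineage. Nfib had an expression value of 42567 (PP), 70574 (DP), and 158589 (neurons), the highest in the most differentiated cells. Nfix had 30028 (PP), 49157 (DP), and 70007 (neurons), in the same order. Nfic had 5106 (PP), 4156 (DP), and 1341 (neurons), in the reverse order. The values come from an earlier RNA-seq of the same sorted cell types and the scale of these columns is not named, so they are compared between cell types for a gene and not between genes.

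**Figure D1:**
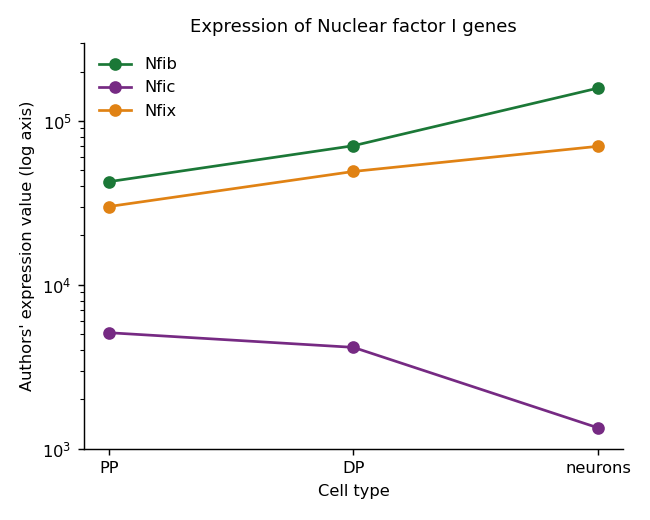
Expression value of Nfib, Nfic, and Nfix (vertical axis, the authors' value on a log scale) in PP, DP, and neurons (horizontal axis), each point being 1 deposited value without replicates. Nfib and Nfix go up from PP to DP to neurons, and Nfic goes down, most steeply from DP to neurons.

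On the scale of log2 of the value plus 1, the difference for Nfib was 0.73 from PP to DP and 1.17 at the next step, which made it 3.73 times higher in neurons than in PP. For Nfix the differences were 0.71 and 0.51, and the level in neurons was 2.33 times that in PP. For Nfic they were -0.30 and -1.63, and its level in PP was 3.81 times that in neurons. A difference of at least 0.58, a change of 1.5-fold, was counted as higher or lower throughout. From PP to DP, 13.9% of the 16293 genes with a value were higher and 17.1% lower, and Nfib and Nfix were among the higher. From DP to neurons, 26.4% were higher, Nfib among them, and 26.3% lower, Nfic among them, and Nfix stayed under the limit. From PP to neurons, 30.0% were higher, including Nfib and Nfix, and 31.4% lower, including Nfic. In sorted bulk cells, fewer cells that express a gene and less RNA per cell cannot be told apart.

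The sorted populations carried their markers in the same expression columns. All 7 listed PP genes (Sox2, Pax6, Hes1, and others) were highest in PP, the 4 DP genes with a value (among them Eomes and Btg2) in DP, and the 6 neuronal genes with a value (among them Tubb3 and Dcx) in neurons. The 4 interneuron genes with a value, among them Gad1 and Dlx1, were also highest in neurons, their sum going from 971 in PP to 3616 in DP and 10576 in neurons. The sum of microglial genes was 327 (PP), 203 (DP), and 79.7 (neurons), and that of endothelial genes 399, 326, and 91.8. The sum of the 3 oligodendrocyte precursor genes was 326, 446, and 36.1, highest in DP. Genes with the largest values weigh most in such sums. Of the 4 endothelial genes 3 were highest in PP and 1 (Kdr) in DP, and of the 3 oligodendrocyte precursor genes 1 (Pdgfra) in PP and 2 in DP. No marker with a value was at 0 in any cell type. The part of these other cells in the Nuclear factor I values was not tested.

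Nfib, which acts in cortical progenitors and in maturing deep-layer and callosal neurons, had 8 peaks, and all lay around the start site that the tables use for it, chr4 position 82705750. This start site is 199 kb beyond the higher end of the RefSeq span (chr4:82290173-82506751), on the side where peaks count as upstream. The 8 peaks lay between 195918 and 256728 bp outside that span. The tables place 1 of them inside the gene and 7 upstream. Whether a peak lies in an exon or an intron is not stated in the tables.

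Of the 2 Nfib peaks of 5mC, the one 29.1 kb upstream of the start site (chr4:82734775-82734929) had a level of 3.55 (PP), 4.61 (DP), and 3.92 (neurons). It was highest in DP, with a difference of 1.07 from PP to DP that exceeded that of 99.5% of all 5mC peaks, and of -0.70 from DP to neurons. The one 16.1 kb upstream (chr4:82721777-82721887) had 4.99, 5.27, and 5.14, in the same order of cell types but with differences of 0.28 and -0.13. At both the level in neurons stayed above that in PP, by 0.37 and 0.15, whereas the median of all 5mC peaks was -0.17 from PP to neurons.

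The 6 Nfib peaks of 5hmC were lower in DP than in PP at 5 of 6, by up to 0.50, as were 50.4% of all 5hmC peaks. At this step 0 of the 6 reached the limit in either direction. The peak 40.7 kb upstream (chr4:82746371-82746535) had a level of 4.92 (PP), 4.42 (DP), and 4.10 (neurons), lower at each step and with a difference of -0.83 from PP to neurons. The peak 12.1 kb upstream (chr4:82717700-82717912) had 4.67, 4.39, and 3.90, or -0.77 over the lineage. These 2 were the Nfib peaks that counted as lower from PP to neurons, and Nfib expression over the same cells was higher by the limit at each step.

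The other 4 Nfib peaks of 5hmC differed by at most 0.22 between PP and neurons. The peak inside the gene, 3005 bp past the start site (chr4:82702669-82702821), had 4.57, 4.28, and 4.60, and so was lowest in DP. The most distant peak, 57.8 kb upstream (chr4:82763479-82763653), had the highest level of the 6, with 5.72, 5.57, and 5.75. The peak 31.7 kb upstream (chr4:82737350-82737531) had 4.58, 4.75, and 4.52, the only one of the 6 that was highest in DP, and that 27.1 kb upstream (chr4:82732823-82732974) had 4.79, 4.63, and 4.57.

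**Figure D2:**
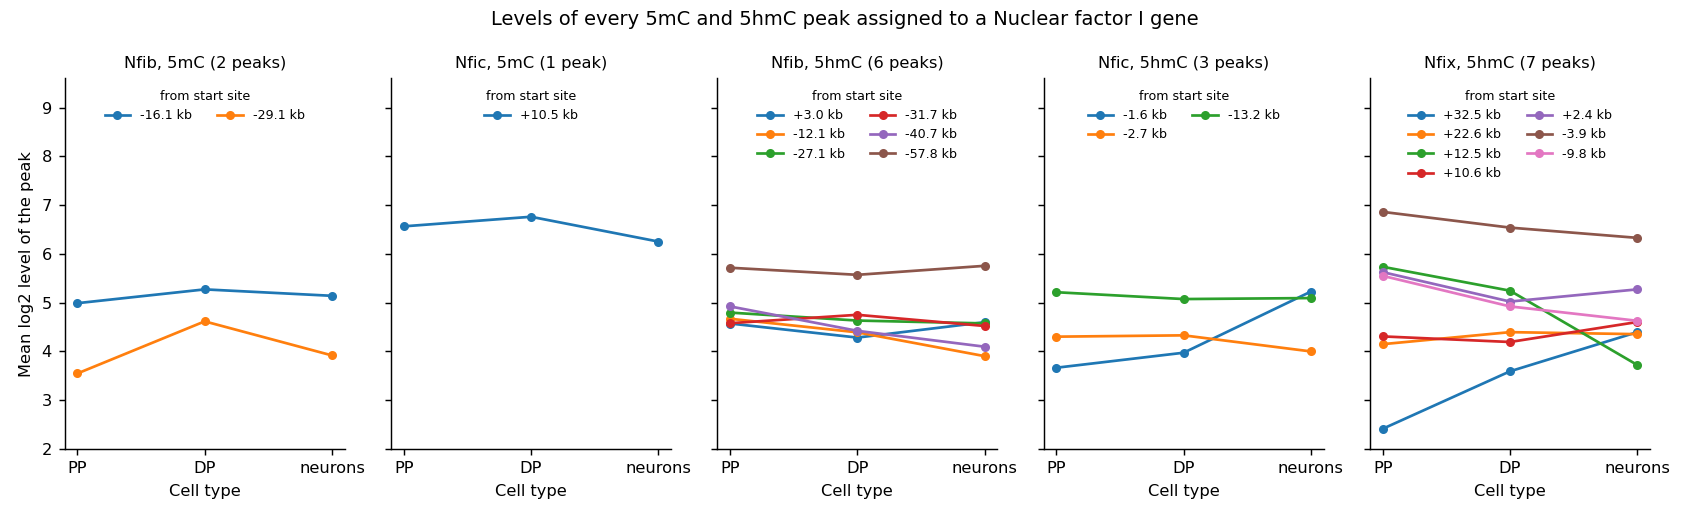
Mean log2 level (vertical axis) of each of the 19 peaks in PP, DP, and neurons (horizontal axis), with a panel per gene and mark and a line per peak, labelled by its distance from the start site in the tables (positive inside the gene). The 5hmC lines of Nfix at +32.5 kb and +12.5 kb cross, the former going up from 2.41 to 4.39 and the latter down from 5.73 to 3.72.

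Nfic, the member that was lower in neurons, spans 35.7 kb in RefSeq (chr10:81396191-81431919), and its start site in the tables lies within that span. Its only 5mC peak, 10.5 kb into the gene (chr10:81420424-81420611), had a level of 6.56 (PP), 6.76 (DP), and 6.25 (neurons). Its mean level was above that of 92.5% of all 5mC peaks, and the difference from DP to neurons was -0.51, short of the limit. It lay 150 bp from a 5hmC peak that carries the symbol Gm16104 (chr10:81420094-81420274), at 5.07 (PP), 5.43 (DP), and 5.40 (neurons). From PP to neurons the difference was -0.31 for the 5mC peak and 0.33 for that 5hmC peak, both short of the limit. Between members, peaks of the 2 marks came no closer than 1801 bp, at Nfib.

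Among the 3 Nfic peaks of 5hmC, the one nearest to the start site changed position in the order. This peak, 1633 bp upstream (chr10:81432534-81432742), had a level of 3.66 (PP), 3.97 (DP), and 5.23 (neurons). It was the lowest of the 3 in PP and the highest in neurons, with a difference of 1.25 from DP to neurons, above that of 95.1% of all 5hmC peaks. The peak 2741 bp upstream (chr10:81433636-81433857), only about 1 kb farther, had 4.30, 4.33, and 4.00, and that 13.2 kb upstream (chr10:81444113-81444245) had 5.21, 5.07, and 5.09. At the peak 1633 bp upstream 5hmC was higher, and Nfic expression lower, at both steps. Both differences reached the limit only from DP to neurons.

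Nfix, a regulator of progenitor differentiation in the cortex and hippocampus, spans 96.5 kb in RefSeq (chr8:84704712-84801238) and had 7 peaks of 5hmC, 5 inside the gene and 2 upstream. Peaks of the same gene went both ways. The peak 32.5 kb into the gene (chr8:84767789-84767983) had 2.41 (PP), 3.59 (DP), and 4.39 (neurons), which is 1.18 more in DP than in PP and a further 0.80 in neurons. Its mean level was low, above that of 3% of all 5hmC peaks. In contrast, the peak 12.5 kb into the gene (chr8:84787734-84787875) had 5.73, 5.24, and 3.72. Its difference was -1.52 from DP to neurons and -2.01 from PP to neurons, and 0.227% and 0.0927% of all 5hmC peaks had lower differences.

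Both upstream peaks of Nfix were lower at each step. The peak 3871 bp upstream (chr8:84804141-84804289) had the highest level of the 16 members of 5hmC, 6.86 (PP), 6.54 (DP), and 6.33 (neurons), and its mean level was above that of 97.6% of all 5hmC peaks. The peak 9766 bp upstream (chr8:84810014-84810205) had 5.55, 4.92, and 4.63, with a difference of -0.63 from PP to DP and of -0.92 from PP to neurons. The peak 2424 bp into the gene (chr8:84797855-84797985) was also lower in DP, at 5.63, 5.02, and 5.27.

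The remaining 2 Nfix peaks differed by less than the limit at every step. The peak 10.6 kb into the gene (chr8:84789668-84789805) had 4.31, 4.19, and 4.60, and that 22.6 kb into the gene (chr8:84777617-84777778) had 4.15, 4.39, and 4.35. Hence 1 of 7 peaks was higher in neurons than in PP by the limit, 2 were lower, and 4 were within it, while Nfix expression differed by 0.71 from PP to DP and by 0.51 at the next step.

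**Figure D3:**
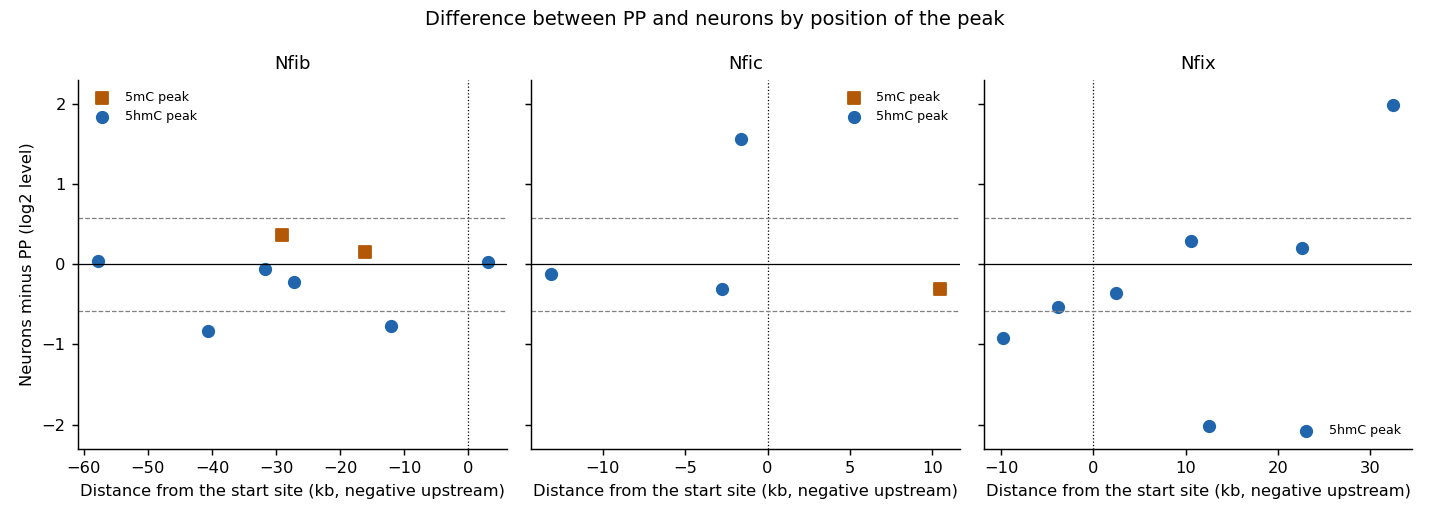
Difference in mean log2 level between neurons and PP (vertical axis, neurons minus PP) against the distance of the peak from the start site in the tables (horizontal axis, kb, negative upstream), for the 19 peaks by gene and mark, with dashed lines at 0.58 and -0.58. All 3 peaks of 5mC lie between the dashed lines, and peaks of 5hmC lie above them at Nfic and Nfix (1.56 and 1.98) and below them at Nfib and Nfix (down to -2.01).

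Over the family, few 5mC peaks were available. From PP to DP, 1 of 3 was higher (Nfib) and 0 were lower, where 4.62% of all 5mC peaks were higher and 5.69% lower. From DP to neurons, 1 of 3 was lower (the same Nfib peak) and 0 higher, beside 15.8% and 2.32% of all 5mC peaks. From PP to neurons, 0 were lower or higher, beside 16.6% and 2.17%. The median difference was 0.28 for PP to DP and -0.51 for DP to neurons, against -0.0040 and -0.18 over all 5mC peaks. With 3 peaks these shares are a description only.

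For 5hmC, 2 of 16 peaks were lower from PP to DP, both of Nfix, and 1 was higher, also of Nfix, beside 4.84% and 11.3% of all 5hmC peaks. From DP to neurons 1 was lower (Nfix) and 2 higher (Nfic and Nfix), beside 8.00% and 15.9%. From PP to neurons 4 were lower (2 each of Nfib and Nfix) and 2 higher (Nfic and Nfix), beside 11.1% and 20.4%. With 16 peaks these shares are a description only, and without those of Nfib the lower and the higher peaks from PP to neurons were 2 each. The median difference was -0.15 from PP to DP, -0.050 from DP to neurons, and -0.17 from PP to neurons, against -0.0035, -0.023, and -0.081 over all 5hmC peaks. A locus with less 5mC and more 5hmC at the same place was not found among the members, as 0 of the 19 overlapped a peak of the other mark. Over the series 12.2% of 5mC and 14.2% of 5hmC peaks did. With 3 member peaks of 5mC an overlap had few places to occur, so its absence says little.

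The symbols in the tables cover only some of the peaks that lie in these genes. Within the RefSeq spans of the 4 genes there were 9 peaks of 5mC and 37 of 5hmC, of which 1 and 5 carried the symbol of the gene itself and the others carried the symbols of other genes, such as Gm12676 or G430095P16Rik. This wider set was taken after the values had been seen. Nfia, with a span of 541 kb (chr4:97578066-98118876), held 6 peaks of 5mC and 18 of 5hmC, Nfib held 0 and 2, Nfic held 2 and 5, and Nfix held 1 and 12. The Nfib span stops 199 kb short of the start site used for Nfib above. This set therefore holds none of the 8 Nfib peaks described above and does not cover that stretch. The 2 peaks of 5hmC in the Nfib span, both under Gm11266, went different ways. The one 1.5 kb inside its higher end (chr4:82505076-82505247) had 4.56 (PP), 4.07 (DP), and 3.47 (neurons), a difference of -1.09 from PP to neurons. The other (chr4:82483717-82483851) had 3.47, 4.18, and 4.03, a difference of 0.56.

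All 9 peaks of 5mC in these spans had a lower level in neurons than in DP, as did 70.8% of all 5mC peaks, with a median difference of -0.33 beside -0.18 over all. By the limit, 3 of the 9 were lower from PP to neurons, beside 16.6% of all. Of the 37 peaks of 5hmC, 12 (32.4%) were higher from PP to neurons and 5 (13.5%) lower, with a median of 0.38, compared with 20.4% and 11.1% of all 5hmC peaks. At Nfia, a driver of gliogenesis, 8 of 18 peaks of 5hmC were higher and 2 lower over the lineage, with a median of 0.43, and 2 of 6 peaks of 5mC were lower and 0 higher.

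**Figure D4:**
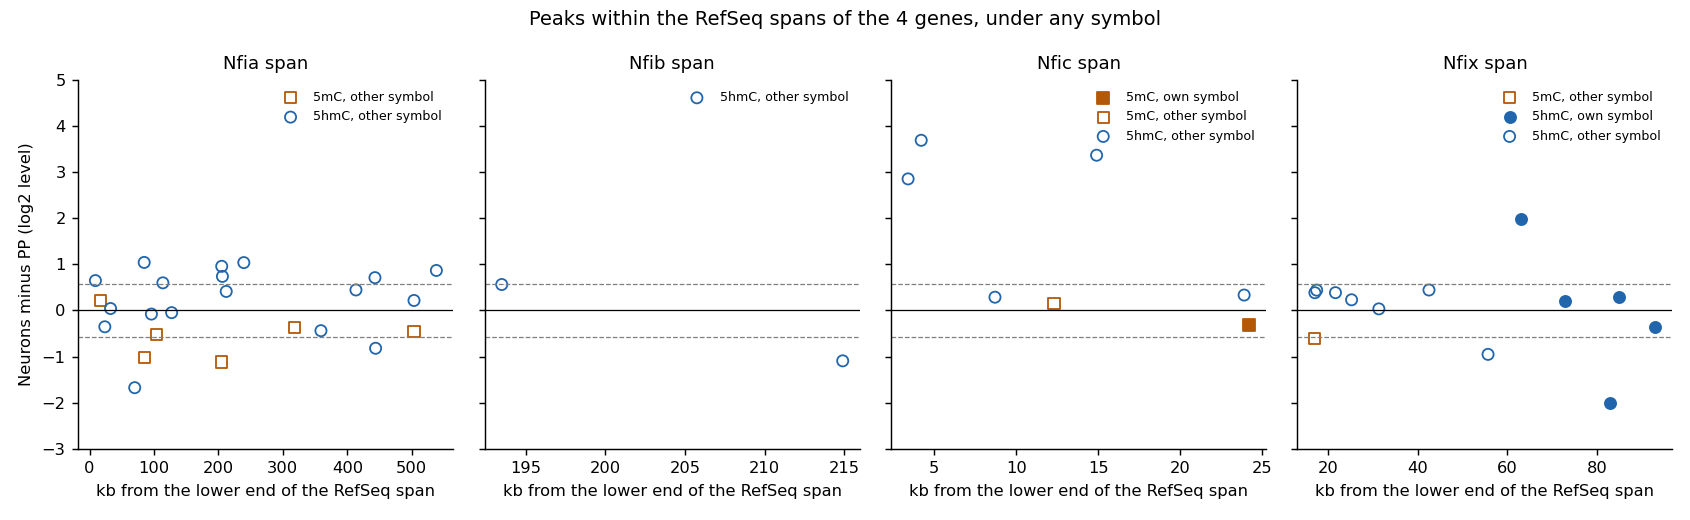
Difference in mean log2 level between neurons and PP (vertical axis) for every peak within the RefSeq span of each gene, against its position in kb from the lower end of the span (horizontal axis), with filled symbols for peaks under the gene's own symbol, open symbols for others, and dashed lines at 0.58 and -0.58. Open circles in the Nfic panel reach 2.85 to 3.69, and 8 of 18 circles in the Nfia panel lie above the upper dashed line.

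The steepest differences were inside Nfic. A peak of 5hmC 4.2 kb from the lower end of its span (chr10:81400356-81400574, under 2210404O07Rik) had 1.5 (PP), 3.84 (DP), and 5.19 (neurons). Close to it, the peak at chr10:81399562-81399723 (same symbol) had 2.28, 4.00, and 5.13, and the peak at chr10:81411109-81411327 (under Gm16104) had 2.00, 4.38, and 5.36. All 3 were below the median of all 5hmC peaks in PP, 4.72, and above that in neurons, 4.75, and their larger step was from PP to DP. Their mean levels were low, above those of 3.32%, 6.11%, and 8.21% of all 5hmC peaks in the order given. The other 2 peaks of 5hmC in the span differed by 0.33 or less between PP and neurons. Of the 2 peaks of 5hmC at Nfia that were lower by the limit from PP to neurons, the one at chr4:97648129-97648266 (under Gm12697) had 4.97 (PP), 3.67 (DP), and 3.29 (neurons), and the one at chr4:98022007-98022129 (under Gm12691) had 4.24, 4.24, and 3.42.

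Overlapping peaks of both marks, absent under the symbols, occurred at 4 places in the spans, 3 in Nfia and 1 in Nfix. At chr4:97662925-97663053 in Nfia, 5mC was 6.56 (PP), 6.22 (DP), and 5.54 (neurons), and in the 5hmC peak over it (chr4:97662880-97663051) the level was 4.77, 5.24, and 5.81. At chr4:97783107-97783262 in Nfia, 5mC was 5.76, 5.09, and 4.64, and 5hmC (chr4:97783167-97783370) was 4.58, 5.05, and 5.54. At both places 5mC was lower and 5hmC higher at each step, with differences from PP to neurons of -1.02 and -1.12 for 5mC and of 1.04 and 0.96 for 5hmC.

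The other pairs moved less. At chr4:98081594-98081745 in Nfia, 5mC was 5.33, 5.19, and 4.86, and 5hmC (chr4:98081540-98081739) was 4.99, 4.50, and 5.20, lowest in DP. In Nfix the peaks shared 7 bp, with 5mC (chr8:84721615-84721767) at 6.42, 6.0, and 5.82 and 5hmC (chr8:84721760-84721879) at 6.42, 6.68, and 6.80.

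**Figure D5:**
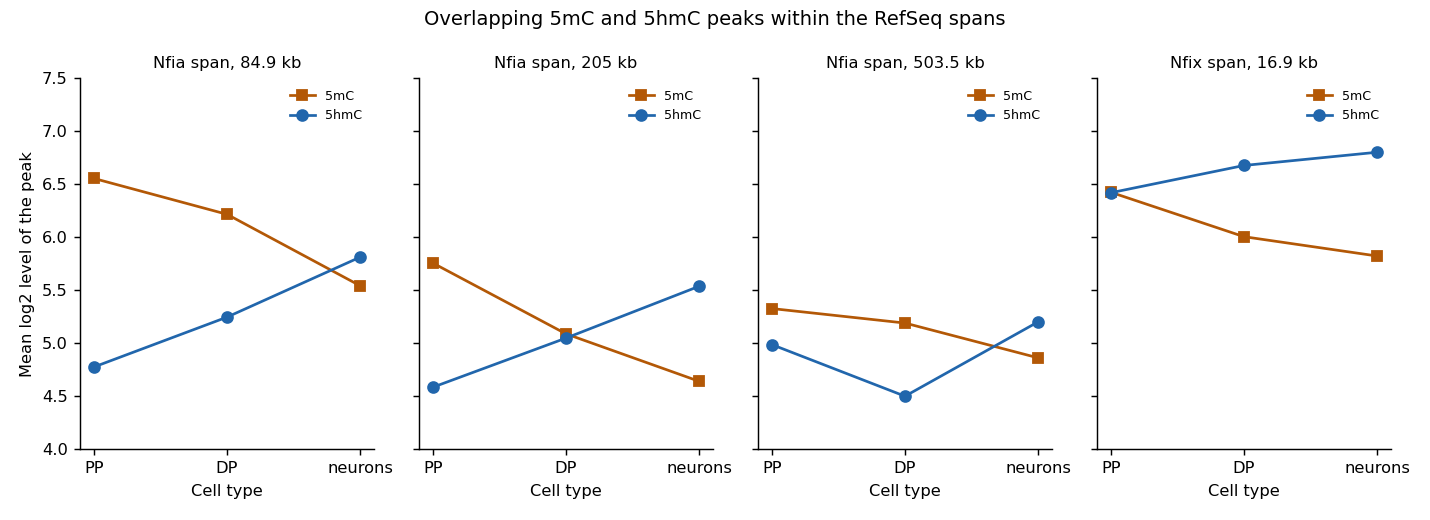
Mean log2 levels (vertical axis) of overlapping 5mC (squares) and 5hmC (circles) peaks in PP, DP, and neurons (horizontal axis) at the 4 places within the spans of Nfia and Nfix, titled by the distance of the 5mC peak from the lower end of the span. In each panel 5mC is lower and 5hmC higher in neurons than in PP, and levels are not compared between the marks, which were normalized separately.

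Genes linked to Nuclear factor I proteins as targets, partners, or regulators were read from a list of 12, of which 9 had a peak and Sox9, Ezh2, and Fabp7 had none. From PP to DP 3 of the 9 were higher in expression and 2 lower, beside 13.9% and 17.1% of all genes. From DP to neurons 1 was higher and 5 lower, beside 26.4% and 26.3%, and from PP to neurons 3 were higher and 4 lower, beside 30.0% and 31.4%. Hes1, the Notch effector that keeps progenitors undifferentiated, had 4992 (PP), 2620 (DP), and 29.5 (neurons). Cntn2, an axonal adhesion molecule, had 1146, 9931, and 226628. Gfap, the intermediate filament of astrocytes, was near the bottom of the scale with 18.9, 27.8, and a listed value of 0 in neurons.

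These 9 genes had 49 peaks of 5mC and 50 of 5hmC. From DP to neurons 13 of the 49 peaks of 5mC were lower and 0 higher, beside 15.8% and 2.32% of all 5mC peaks, and 7 of the 13 belonged to Cntn2. Over the same step 2 of the 50 peaks of 5hmC were lower and 8 higher, beside 8.00% and 15.9% of all 5hmC peaks. From PP to neurons 8 were lower and 9 higher, beside 11.1% and 20.4%. The median difference from PP to neurons was -0.32 for 5mC and -0.11 for 5hmC, beside -0.17 and -0.081 over all peaks.

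Genes with the most similar pattern were sought among 5906 genes with at least 3 peaks of 5hmC, by the distance over 4 scaled values, the median 5hmC difference and the expression difference at both steps. This measure was set after the values had been seen, since none of the members has 3 peaks of 5mC. Nearest to Nfib were Jazf1 (distance 0.29 SD units), Peli1 (0.29), and Vav3 (0.34). Nearest to Nfic were Inhbb (0.14), Insl6 (0.17), and H2afz (0.19), and nearest to Nfix were Usp49 (0.18), Bach2 (0.38), and Lactb (0.40). These genes were picked for closeness in these values, so their likeness is no separate result. Usp49, with 3 peaks of 5hmC, had median differences of -0.32 from PP to DP and of -0.04 from DP to neurons, as did Nfix over 7 peaks. The expression differences of Usp49 were 0.55 and 0.40, beside the 0.71 and 0.51 of Nfix. Jazf1 had median 5hmC differences of -0.22 and -0.17 over 10 peaks, beside -0.22 and -0.14 over the 6 peaks of Nfib.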

How the data were processed

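MeDIP and hMeDIP were done on PP, DP, and neurons, and the 12 samples are 1 immunoprecipitate and 1 input per cell type and mark. The paper reports several biological replicates of each cell type, which the 12 samples do not list separately. Per the labels and the methods, the single reads were aligned to mm10 in BWA 0.7.8-r455, and the authors called peaks with SICER 1.1, kept peaks found in all replicates, left out those over repeats, and annotated the nearest start site with HOMER 4.7. The levels deposited by the authors are log2 of the mean TMM-normalized read level from DiffBind, averaged over biological replicates, so no error, depth, or test could be computed from them here. The expression value and the distance to the start site are scores as deposited, and the scale of the deposited expression columns is not named, although the study plots expression of these cells as FPKM. The authors' columns of fold changes and p-values for pairs of cell types and of expression were not used.

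Differences were taken as later minus earlier cell type, a peak or gene counted as higher or lower at 0.58 or more, and expression was compared as log2 of the value plus 1. Peaks of both marks were paired at an overlap of 1 bp. No row was filtered. Peaks were named as those of the 4 genes, all of which are given, and similar genes as the 3 nearest to each member. The similarity was set up over 6 values and genes with at least 3 peaks of each mark, which none of the members has, and was changed to 4 values. Members and lists were chosen with earlier results of these data known. Alternatives covered the size of difference, centring, level, distance, repeated rows, each gene, overlap, and pseudocount. Code was checked on simulated data, in python 3.11.15 with numpy 2.4.6, pandas 2.3.3, and matplotlib 3.10.9. Gene spans and promoters came from RefSeq on GRCm38.p6, and no promoter of Nfib was used here.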

Additional observations from a re-analysis of the deposited data

How the results depend on the processing

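Levels are means without replicate values, so depth and replicate spread limit every difference to a description, and the cause of the shifts below was not tested, beyond some alternatives counting fewer peaks. Over the alternatives named in the methods, 91 values stayed within 1.5 times of a count or 0.1 of a median and 21 did not. Some of the 91 could not move, as no member row is repeated and no member lies over 100 kb from its start site. They also include expression differences under other pseudocounts, which are small beside the expression values. The number of unmoved values is thus no measure of stability. The 5hmC median from DP to neurons turned positive inside genes and in the RefSeq spans, where the 5hmC median from PP to DP turned positive and that of 5mC negative. No paired analysis was possible because the tables hold no replicate columns.

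With peaks inside a gene only, 0 peaks of 5mC were higher from PP to DP and 0 lower from DP to neurons, 1 peak of 5hmC was lower from PP to DP and 1 higher from DP to neurons, and the 5hmC median of the latter step was 0.28. Without Nfib, 0 peaks of 5mC were higher from PP to DP and 0 lower from DP to neurons. Without Nfic, the medians from PP to DP were 0.68 for 5mC and -0.28 for 5hmC, and 1 peak of 5hmC was higher from DP to neurons. Without Nfix, 0 peaks of 5hmC were lower and 0 higher from PP to DP, and 0 were lower and 1 higher from DP to neurons. With the median of all peaks subtracted, 0 peaks of 5mC were lower from DP to neurons and their median was -0.33. At a mean level of 4 or more, 0 peaks of 5hmC were higher from PP to DP and 1 at the next step. At a difference of 1 or more, 0 peaks of 5mC were lower from DP to neurons, 0 peaks of 5hmC were lower from PP to DP, and 1 was higher from DP to neurons.

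Peaks of any symbol in the RefSeq spans were an alternative chosen after seeing the data. From PP to DP, 1 of 9 peaks of 5mC was lower and 0 higher, beside 5.69% and 4.62% of all 5mC peaks. The medians were -0.14 at that step and -0.33 at the next. Of 37 peaks of 5hmC, 2 (5.41%) were lower and 5 (13.5%) higher from PP to DP (median 0.11), beside 4.84% and 11.3% of all 5hmC peaks. From DP to neurons 4 (10.8%) were lower and 9 (24.3%) higher (median 0.32), beside 8.00% and 15.9%. In these spans 4 pairs of both marks overlapped. Of the 13 values of this alternative 10 moved and 3 did not. This alternative also drops all 8 peaks under the Nfib symbol, so it differs from the main set in both directions. Leaving out Nfia could change nothing, as it has no peak under its symbol, and without Nfix the 5mC values were the same, as it has no peak of 5mC.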

Other observations

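The Nfix span ends 32.9 kb from a pair of overlapping peaks that the tables assign to Gadd45gip1, a gene of mitochondrial translation, and that was picked after its values were seen. In its 5mC peak (chr8:84834186-84834319) the level was 6.34 (PP), 5.01 (DP), and 4.28 (neurons). In its 5hmC peak (chr8:84834191-84834328) it was 4.20, 6.21, and 5.84, so that 5hmC was highest in DP while 5mC was lower at each step. None of the pairs within the Nfia and Nfix spans had differences of this size, the largest there being -1.12 for 5mC and 1.04 for 5hmC from PP to neurons, beside -2.06 and 1.63 here.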
